A study of Mus musculus with 2 samples.

Results

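Eosinophils are granulocytes of type 2 immunity whose cytoplasm is filled with toxic cationic proteins. Their granules hold a peroxidase, a major basic protein and small secreted ribonucleases, and their growth and survival depend on interleukin-5 acting through a receptor with a private alpha chain and a shared beta chain. The transcripts of the granule proteins are made mostly while precursors mature in the bone marrow, whereas the surface receptors are also carried by mature cells. The spleen holds a small eosinophil population, and eosinophils carry CD11b and lack Ly6G.

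The 7 genes described here are Epx, Prg2, Ear1, Ear2, Ear6, Il5ra and Siglecf, taken by symbol from a count table of 30538 genes. Measured values of the comparison below were known when they were chosen, so their differences are given as a description. The table holds 2 libraries. The wild-type library is of strain C57BL/6, and the knockout library is of genotype Ch25h-/-, without the hydroxylase that converts cholesterol to 25-hydroxycholesterol. Both groups were infected intravenously with 100000 *Listeria monocytogenes*, and on day 3 about 100000 CD11b+, Ly6G-, Ly6C-low spleen cells, labelled resident macrophages, were sorted. Age, sex, the number of mice per library and any other allele are not given in the labels. With 1 library per genotype no test between genotypes was possible, so every interval below covers counting error only and says nothing of variation between mice or sorts.

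The libraries held 16957371 counts (wild-type) and 15986392 counts (knockout). Ch25h itself had 3 counts in the wild-type library and 0 in the knockout library, too few to check the genotype labels. All 12 red pulp macrophage markers were measured in the sorted cells, with a summed level of 616 CPM (counts scaled to library size) in the wild-type library and 378 CPM in the knockout library, and 11 of the 12 had a lower value in the knockout library. The 12 natural killer (NK) cell markers summed to 13621 and 21758 CPM and all were higher in the knockout library, so neither library was made of macrophages alone.

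The 7 genes differed unevenly between the libraries. The peroxidase gene Epx, the major basic protein gene Prg2 and the ribonuclease genes Ear1 and Ear6 were about 10- to 14-fold lower in the knockout library. The ribonuclease gene Ear2 and the interleukin-5 receptor gene Il5ra were less than 2-fold lower, and the surface lectin gene Siglecf was nearly level. Counting error does not separate Siglecf from Ear2 or Il5ra, as given below. In bulk RNA, fewer cells of a type and less RNA per cell cannot be told apart.

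A gene counted as measured if it averaged 1 CPM or more across the 2 libraries, and it was called lower or higher when the ratio of the libraries was at least 2-fold and its exact 95% interval excluded a ratio of 1. All 7 members were measured, and 4 were called lower and 0 higher. Over all 11972 measured genes, 5.77% were called lower and 2.07% higher. With the alternatives of a filter at 5 CPM and of an interval wholly beyond 2-fold, 3.44% and 2.66% were called lower, against 1 and 4 of the members. Epx, Prg2, Ear1 and Ear6 had under 1 CPM in the knockout library and passed the filter only through the wild-type library, and the members were chosen on this contrast, so nothing is read from their count.

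The Ear genes are close copies of each other, and their sequences show how far a read can tell them apart. The opening 120 coding bases of Ear1, Ear2 and Ear6 are given from GENCODE M21 (GRCm38) transcripts, 5′ to 3′, with capitals where a base differs from Ear2.
Ear2: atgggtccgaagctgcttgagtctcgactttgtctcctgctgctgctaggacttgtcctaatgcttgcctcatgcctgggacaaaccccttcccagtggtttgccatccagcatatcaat
Ear1: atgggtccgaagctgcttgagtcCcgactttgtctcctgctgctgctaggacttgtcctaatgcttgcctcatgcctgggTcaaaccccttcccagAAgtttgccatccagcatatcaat
Ear6: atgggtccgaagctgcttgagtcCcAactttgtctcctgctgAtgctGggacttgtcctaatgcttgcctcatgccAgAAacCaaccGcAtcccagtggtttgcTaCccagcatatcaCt
Ear1 differed from Ear2 at 4 of these 120 bases and Ear6 at 13. Over the whole coding sequence, Ear1 and Ear2 were identical at 95.7% of aligned bases, Ear2 and Ear6 at 88.2%, and Ear1 and Ear6 at 87.3%.

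The likeness extends upstream of the Ear genes. The 150 bases before the RefSeq start are printed for Ear1 and Ear2, and for Epx as the granule gene with the lowest ratio. They are given on the strand of the gene (build GRCm38.p6). Capitals mark a match to TTGCNNAA, a C/EBP-type motif, in the Ear genes and to TATAAA in Epx.
Ear1, chr14:43819640-43819789, minus strand: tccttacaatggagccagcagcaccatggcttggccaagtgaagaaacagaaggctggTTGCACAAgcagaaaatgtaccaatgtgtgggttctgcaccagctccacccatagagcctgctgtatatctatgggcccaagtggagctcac
Ear2, chr14:44102504-44102653, plus strand: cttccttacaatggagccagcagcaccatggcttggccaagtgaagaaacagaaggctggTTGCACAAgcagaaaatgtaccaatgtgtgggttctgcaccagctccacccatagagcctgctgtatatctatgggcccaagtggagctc
Epx, chr11:87875537-87875686, minus strand: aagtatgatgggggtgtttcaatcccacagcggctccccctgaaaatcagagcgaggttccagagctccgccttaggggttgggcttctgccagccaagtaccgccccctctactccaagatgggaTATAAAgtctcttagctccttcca
The Ear1 and Ear2 stretches aligned over 148 bases with 0 mismatches. The same stretches of Ear6 and Ear2 had 122 identical bases and 6 mismatches (95.3% identity). The RefSeq start of Ear1 lies inside the longer gene span that GENCODE gives. Ear1 and Ear2 thus share this upstream stretch, and any link of it to their levels was not tested.

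Epx encodes eosinophil peroxidase, which turns hydrogen peroxide and bromide into an oxidant. The gene (ENSMUSG00000052234) lies on the minus strand of GRCm38 chromosome 11, from 87864000 to 87875536. It had 104 counts in the wild-type library (exact Poisson interval 84.98 to 126) and 7 counts in the knockout library (2.81 to 14.4), which is 6.08 and 0.442 CPM. The 2 intervals lie far apart, with the knockout library the lower. The log2 ratio of Ch25h-/- over C57BL/6 was -3.78 (95% interval -5.13 to -2.69), a level 13.8-fold lower.

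Prg2 encodes the precursor of major basic protein, which forms the crystalline core of the eosinophil granule. The gene (ENSMUSG00000027073) lies on the plus strand of chromosome 2, from 84980461 to 84983632. It had 165 counts in the wild-type library (141 to 192) and 12 in the knockout library (6.20 to 20.96), or 9.64 and 0.757 CPM. Its log2 ratio of -3.67 (-4.65 to -2.83) was almost that of Epx. The difference between the log2 ratios of Epx and Prg2 was -0.11, with a counting interval of -1.74 to 1.40 that allows a gap of over 2-fold either way.

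**Figure D1:**
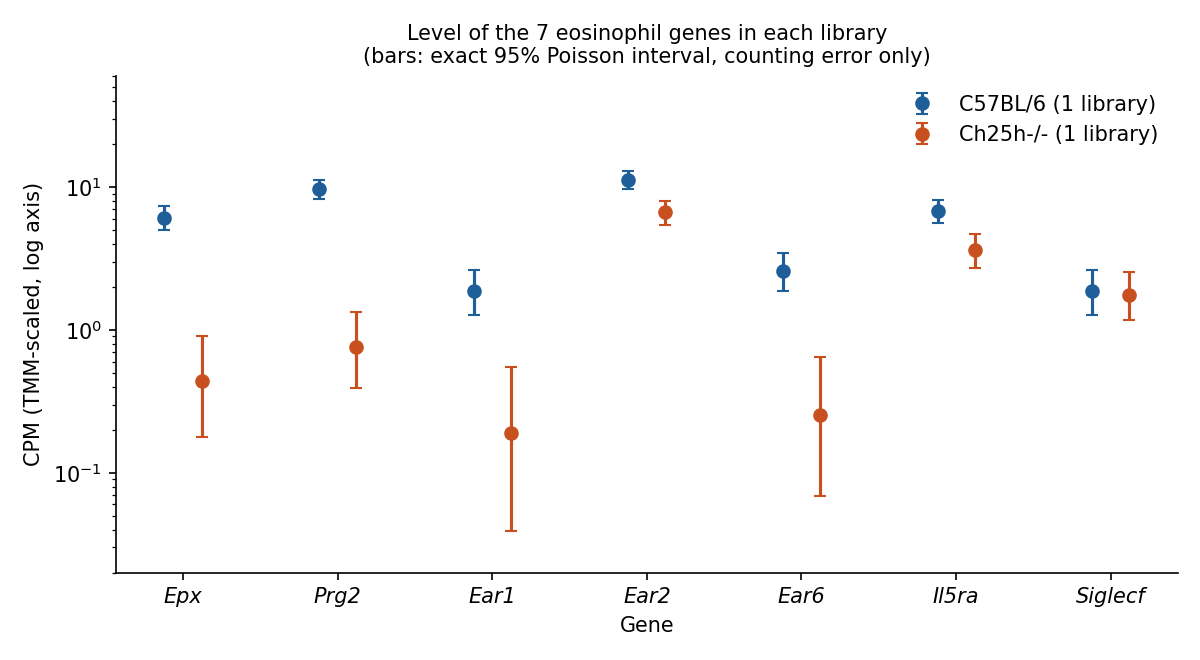
Level of each of the 7 genes in the wild-type (C57BL/6, blue) and the knockout (Ch25h-/-, orange) library, in TMM-scaled CPM on a log axis, with exact 95% Poisson intervals. Epx, Prg2, Ear1 and Ear6 lie under 1 CPM in the knockout library and their intervals do not meet those of the wild-type library, whereas the 2 values of Siglecf nearly coincide.

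Ear1, Ear2 and Ear6 encode eosinophil-associated ribonucleases of the RNase A superfamily, which includes antimicrobial and antiviral proteins. All 3 lie on chromosome 14, Ear1 on the minus strand (43818765 to 43875517), Ear2 on the plus strand (44102654 to 44103534) and Ear6 on the plus strand (51853699 to 51854643). Ear1 had 32 counts in the wild-type library and 3 in the knockout library, or 1.87 and 0.189 CPM, a log2 ratio of -3.30 (-5.66 to -1.63). Ear6 had 44 and 4 counts, or 2.57 and 0.252 CPM, a log2 ratio of -3.35 (-5.29 to -1.89). Both were low in the knockout library, but with so few counts their size is known only loosely, from 3.09- to 50.4-fold for Ear1 and from 3.71- to 39.0-fold for Ear6.

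Ear2 differed from both of these copies. It had 192 counts in the wild-type library (166 to 221) and 105 in the knockout library (85.9 to 127), or 11.2 and 6.63 CPM. The intervals do not meet, and the log2 ratio of -0.76 (-1.12 to -0.41) is a level 1.69-fold lower, short of the 2-fold rule. The log2 ratio of Ear2 was 2.54 above that of Ear1 (counting interval 0.81 to 4.92) and 2.59 above that of Ear6 (1.07 to 4.56), while Ear1 and Ear6 differed by 0.04 (-2.82 to 2.71). Ear2 made up 71.6% of the counts of these 3 genes in the wild-type library (65.8 to 77.0% by the exact binomial interval) and 93.8% in the knockout library (87.5 to 97.5%).

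The other Ear-type ribonuclease genes Ear10, Ear14, Rnase2a (also called Ear11) and Rnase2b had 0 counts in both libraries. The exact Poisson interval of a count of 0 reaches 3.69 counts. A fixed floor of 3 counts, used below for a count of 0, is 0.175 CPM in the wild-type library and 0.189 CPM in the knockout library. Summed over all 7 Ear-type genes, which does not depend on how the counted reads were divided among them, the counts were 268 and 112, a log2 ratio of -1.15 (-1.48 to -0.82). The sum follows Ear2, its most abundant gene. Of all windows of 50 bases in the Ear1 transcripts, 57.4% occurred exactly in the transcripts of another gene, and 23.8% occurred in Ear2. In Ear2 41.5% were shared with another gene, most often with Ear10, and in Ear6 0.954%. With windows of 100 bases the shares were 23.9% for Ear1, 13.9% for Ear2 and 0% for Ear6, and Ear1 and Ear2 shared 0 such windows. The most frequent partner of Ear1 was the pseudogene Ear-ps9, which overlaps the Ear1 locus in this annotation. Its identifier in this annotation has no row in the count table. Read length, strand setting and the handling of reads with several matches are not given in the sources used here. LincRNA genes on the opposite strand, also without a row, overlap Ear1 and Ear2. The single values of Ear1 and Ear2 are thus less sure than those of Ear6, Epx and Prg2.

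**Figure D2:**
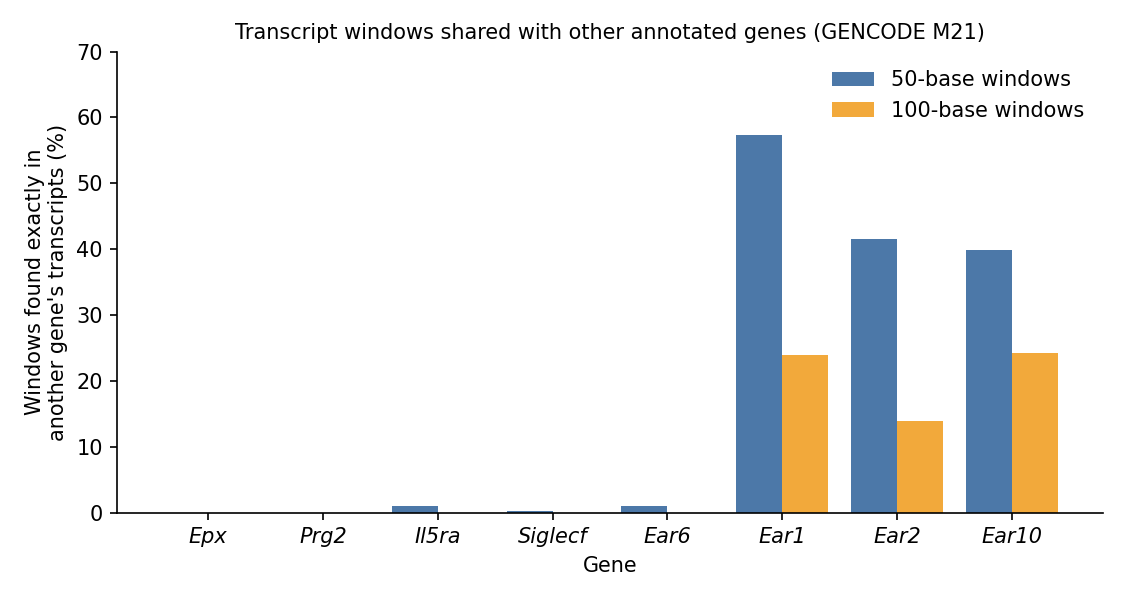
Share of all 50-base (blue) and 100-base (orange) windows of each gene's GENCODE M21 transcripts that occur exactly, on either strand, in the transcripts of another gene. Ear1, Ear2 and Ear10 share many windows, while Epx and Prg2 share 0 and Ear6, Il5ra and Siglecf share about 1% or less at 50 bases.

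Il5ra encodes the private alpha chain of the interleukin-5 receptor, which is also carried by B-1 cells. The gene (ENSMUSG00000005364, chromosome 6, 106710357 to 106749037, minus strand) had 116 counts in the wild-type library (95.9 to 139) and 57 in the knockout library (43.2 to 73.9), or 6.78 and 3.60 CPM. The knockout library was the lower, and the 2 intervals do not meet. The log2 ratio was -0.91 (-1.40 to -0.44), a level 1.88-fold lower. It lay 2.87 above that of Epx on the log2 scale (counting interval 1.64 to 4.30) and 2.76 above that of Prg2 (1.76 to 3.85).

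Siglecf encodes a sialic acid-binding inhibitory receptor of mouse eosinophils that alveolar macrophages carry as well. The gene (ENSMUSG00000039013, chromosome 7, 43351341 to 43359531, plus strand) had 32 counts in the wild-type library (21.9 to 45.2) and 28 in the knockout library (18.6 to 40.5), or 1.87 and 1.77 CPM. The intervals overlap almost wholly, with a log2 ratio of -0.08 that counting error places between -0.87 and 0.70. Siglecf and Ear1 had the same 32 counts in the wild-type library and 28 against 3 in the other. The log2 ratio of Siglecf lay 3.70 above that of Epx (2.29 to 5.25) and 0.83 above that of Il5ra (-0.10 to 1.75). It lay 0.68 above that of Ear2 (-0.19 to 1.54), so counting error does not separate Siglecf from Il5ra or Ear2.

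**Figure D3:**
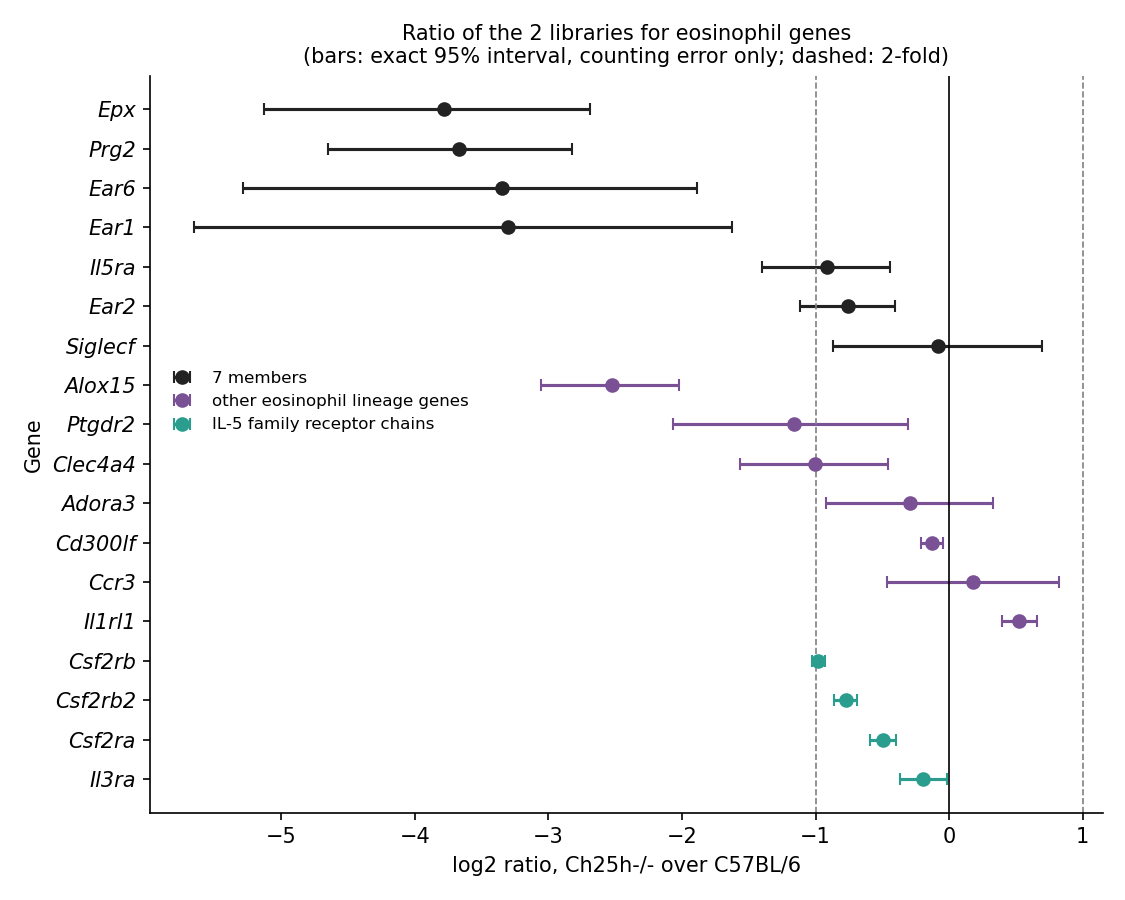
Log2 ratio of the Ch25h-/- over the wild-type library for the 7 genes (black), the measured genes of the list of other eosinophil lineage genes (purple) and the IL-5 family receptor chains (green), with exact 95% counting intervals and dashed lines at 2-fold. Epx, Prg2, Ear6 and Ear1 lie between -3.78 and -3.30, Il5ra and Ear2 between -1 and 0, and Siglecf and Ccr3 have intervals that include 0.

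These differences changed the make-up of the 7-gene total. The 7 genes together had 685 counts (40.03 CPM) in the wild-type library and 216 (13.6 CPM) in the knockout library. Epx, Prg2, Ear1 and Ear6 took 50.4% of that total in the wild-type library (46.6 to 54.2% by the exact binomial interval) and 12.04% in the knockout library (8.02 to 17.1%). Il5ra and Siglecf took 21.6% (18.6 to 24.9%) and 39.4% (32.8 to 46.2%), although their own sum was lower in the knockout library, at 148 and 85 counts (log2 ratio -0.69, interval -1.09 to -0.29). Summed, Epx, Prg2, Ear1 and Ear6 had 345 and 26 counts, a log2 ratio of -3.62 (-4.25 to -3.04).

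Levels were also compared between genes as CPM per kilobase of annotated exon. The intervals cover counting error only, and the unknown handling of reads with several matches leaves the places of Ear1 and Ear2 less sure. In the wild-type library Ear2 was highest at 15.6 CPM per kilobase, followed by Prg2 at 11.5. Ear6 (2.72), Ear1 (2.56), Epx (2.22) and Il5ra (1.90) came next, each with an interval that overlapped that of its neighbour in this order, and Siglecf was lowest at 0.670 CPM per kilobase. In the knockout library Ear2 again stood alone at 9.22 CPM per kilobase. The other 6 genes, from Il5ra (1.01) through Prg2 (0.904), Siglecf (0.633), Ear6 (0.267) and Ear1 (0.259) to Epx (0.161), each overlapped their neighbours in counting error. Prg2 was thus second in the wild-type library, and Il5ra second in the knockout library, where it could not be separated from Prg2.

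**Figure D4:**
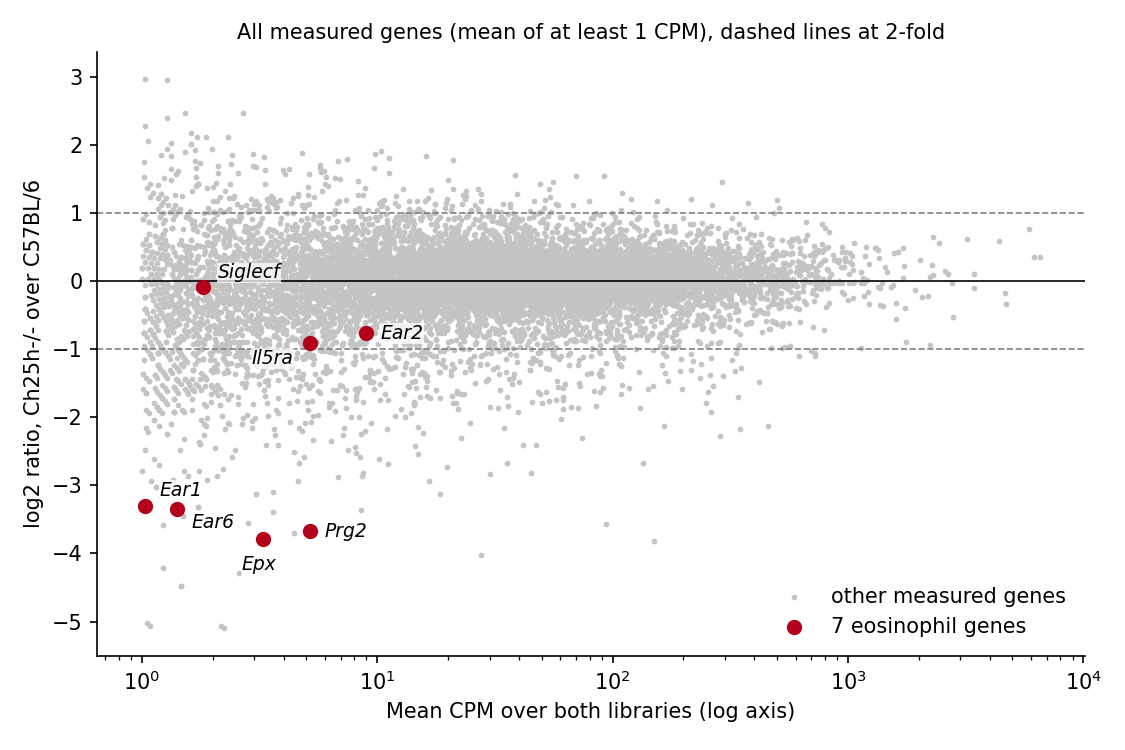
Log2 ratio of the Ch25h-/- over the wild-type library against mean CPM (log axis) for the 11972 measured genes (grey) and the 7 eosinophil genes (red), with dashed lines at 2-fold. Epx, Prg2, Ear1 and Ear6 lie near the lower edge among genes of a few CPM, where the spread of all genes is widest, and Siglecf lies at the centre line.

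Scarce genes were called lower more often than abundant ones. Among the measured genes whose mean CPM was within 2-fold of that of Ear1, 22.6% were called lower, against 14.6% for the level of Epx, 10.2% for that of Prg2 and 6.93% for that of Ear2. The 5 measured genes with a log2 ratio nearest to that of Epx, over the 2 libraries, were the heat shock genes Hspa1b (-3.82) and Hspa1a (-3.56), the chemokine gene Cxcl1 (-3.71), Prg2 (-3.67) and the TNF-family gene Cd70 (-3.59). In all, 49 measured genes, Epx included, had a ratio inside the counting interval of Epx, so the pattern of 2 values is not particular to eosinophil genes.

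The rest of the eosinophil programme was followed in a list of 13 lineage genes outside the 7. Of these, 8 had counts, 7 were measured, 3 were called lower and 0 higher, with a median log2 ratio of -0.29 against 0.01 over all measured genes. The major basic protein homologue Prg3, the neighbour of Prg2 at a distance of 4583 bases, had 12 counts in the wild-type library and 0 in the knockout library. It was too scarce to count as measured. Against a floor of 3 counts in the knockout library, and with the 12 counts taken as they stand, it was at least 3.70-fold lower. With the counting error of both libraries, the log2 ratio could be as high as -1.36. Epx, Prg2, Prg3, Ear1 and Ear6, the 5 granule protein genes other than Ear2 with any count, were thus all at 12 counts or fewer in that library.

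Alox15, the 12/15-lipoxygenase gene of eosinophils and some resident macrophages, had 13.8 CPM in the wild-type library and 2.40 CPM in the knockout library (236 and 38 counts, log2 ratio -2.52, interval -3.06 to -2.02). Ptgdr2, a prostaglandin D2 receptor of eosinophils, basophils and type 2 helper cells, went from 41 to 17 counts (-1.16). Clec4a4, a lectin better known from conventional dendritic cells, went from 91 to 42 counts (-1.004). The eotaxin receptor gene Ccr3, the main chemokine receptor of eosinophils, was not lower, at 42 and 44 counts (log2 ratio 0.18, interval -0.47 to 0.82). Its ratio lay 0.26 above that of Siglecf (-0.77 to 1.29). The interleukin-33 receptor gene Il1rl1 (47.0 and 67.6 CPM, 0.52), the adenosine receptor gene Adora3 (-0.29) and the inhibitory receptor gene Cd300lf (-0.13) were not called, and the histamine receptor gene Hrh4 had 0 counts in both libraries.

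The partners of Il5ra were abundant. Csf2rb, the beta chain shared by the receptors of interleukin-5, interleukin-3 and GM-CSF, had 625 CPM in the wild-type library and 317 CPM in the knockout library (log2 ratio -0.98, interval -1.03 to -0.93). Its interleukin-3-specific copy Csf2rb2 stood at -0.77, the GM-CSF receptor gene Csf2ra at -0.50 and the interleukin-3 receptor gene Il3ra at -0.19. None of the 4 reached the 2-fold rule. The log2 ratio of Il5ra exceeded that of Csf2rb by 0.07 (counting interval -0.42 to 0.54). These chains are also carried by most other myeloid cells.

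Growth and recruiting factors were mostly near the limit of detection. Of 12 such genes, 3 were measured. Il5 had 4 counts in the wild-type library and 0 in the knockout library, and the eotaxin gene Ccl11 had 0 in both. Ccl24, the eotaxin made by macrophages, was called lower at 33 against 4 counts (log2 ratio -2.93, interval -4.89 to -1.44). Ccl5, another ligand of Ccr3 and an abundant product of NK and T cells, had 671 and 937 CPM (0.48), and Csf2, the GM-CSF gene, stood at 0.43. Among the genes too scarce to count as measured, the chemokine gene Ccl7, whose product also binds Ccr3, had 20 and 1 counts (log2 ratio -4.21, interval -9.58 to -1.57) and Il33 had 20 and 8 (-1.21, interval -2.60 to 0.03).

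The transcription factors of the lineage gave smaller differences in both directions. Of 13 factors, 12 were measured, 1 was called lower and 1 higher, with a median log2 ratio of -0.06. Gata1, on which eosinophil commitment depends, had 12 and 16 counts and was too scarce to count as measured. Cebpe, needed for the late granule stage of both eosinophils and neutrophils, was called higher at 29 against 57 counts (1.09, interval 0.42 to 1.78), and Trib1, which supports eosinophil development, was called lower at 126 against 49.1 CPM (-1.36). Gata2 (-0.45), Cebpa (-0.74), Cebpb (-0.59) and Id2 (780 and 869 CPM, 0.16) were not called.

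Relatives of the members by family gave other values. Mpo, the neutrophil peroxidase gene 59587 bases from Epx on chromosome 11, had 67.8 and 51.0 CPM (log2 ratio -0.41), and Lpo had 0 counts in both libraries. The monocyte and dendritic cell ribonuclease gene Rnase6 stood at -0.36 and the ribonuclease inhibitor gene Rnh1, with 168 and 157 CPM, at -0.10. Of the Siglec family, 7 of 9 genes were measured and 2 were called lower, the B cell gene Siglecg (-1.23) and the macrophage gene Siglec1 (-1.08), while Cd22 (-0.61), Cd33 (-0.61) and Mag (0.62) were not called.

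Several members are shared with other cells of the gate, whose marker lists are given for comparison with the members. Ear2 is also a marker of Ly6C-low monocytes. The 12 markers of those monocytes were all measured and summed to 2738 CPM in the wild-type library and 3231 CPM in the knockout library, with 8 ratios below 0, 1 called lower (Fcgr4, -1.13) and a median of -0.24. The sums are mostly Itgal, the most abundant (1341 and 1784 CPM, 0.41), and Spn (471 and 676 CPM, 0.52). Cd36 (-0.67), Pglyrp1 (0.64) and Cx3cr1 (0.62) differed most after Fcgr4. For Il5ra, 12 B and plasma cell markers, a list added after the values were seen, summed to 1263 and 805 CPM. All 12 ratios were below 0, with a median of -0.83, and 5 were called lower, Sdc1 (-1.59), Derl3 (-1.56), Mzb1, Ebf1 and Jchain. For Siglecf, 6 of 8 alveolar-type macrophage markers were measured, with 2 called lower (Marco, -1.56, and Fabp5, -1.07), a median of -0.24, and sums of 795 and 1097 CPM that are mostly Chil3. Of the other markers on that list, Krt79 had 0 counts in both libraries and Car4 had 0 and 6. Pparg had 57 and 40 counts (log2 ratio -0.40), Fabp4 had 24 and 21 (-0.08), and Itgax stood at 0.30. The part of these cells in the values of Ear2, Il5ra and Siglecf was not tested.

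**Figure D5:**
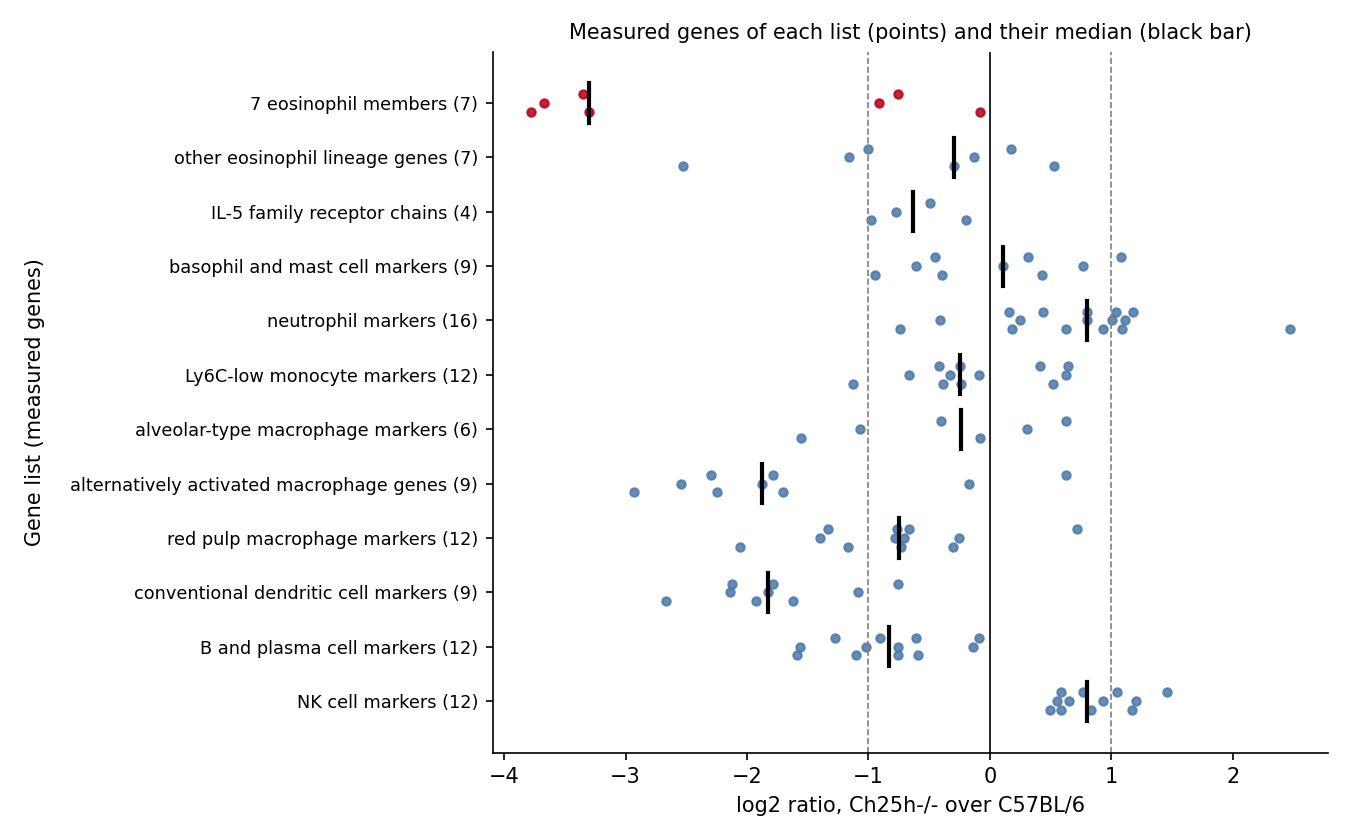
Log2 ratio of the Ch25h-/- over the wild-type library for each measured gene (points) of the 7 members and of 11 comparison lists, with the number measured in parentheses, the median as a black bar and dashed lines at 2-fold. The members spread from -3.78 to -0.08, neutrophil and NK cell markers lie mostly above 0, and conventional dendritic cell and alternatively activated macrophage genes lie mostly below -1.

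None of the measured markers of the other granulocytes was called lower, although several had ratios below 0. Of 13 basophil and mast cell markers 9 were measured, with 1 called higher (Cma1, 1.08), 0 called lower, a median log2 ratio of 0.11 and sums of 450 and 296 CPM. These sums are mostly Hdc and Kit (195 and 128 CPM for Kit). The basophil protease gene Mcpt8 had 193 and 222 counts and the mast cell and basophil gene Cpa3 161 and 201. Hdc (209 and 108 CPM, -0.95), Kit (-0.60) and Cd200r3 (0.76) differed most after Cma1, and Hdc, Kit and Gata2 (-0.45) had intervals wholly below 0. All 16 neutrophil markers were measured, with 6 called higher, 0 lower, a median of 0.80 and sums of 1606 and 2594 CPM. Those called higher included Ly6g (8 and 41 counts), Mmp9 (1.18), Ltf (1.12) and Cebpe. The primary granule genes of the list differed from these, with Ctsg (-0.74, interval -1.16 to -0.33) and Mpo below 0, and Elane (0.16) and Prtn3 (0.18) with intervals that include 0.

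Most measured genes of alternatively activated macrophages and conventional dendritic cells were called lower. Of 9 alternative activation genes 7 were called lower, with a median log2 ratio of -1.88. Ccl24, Mrc1 (-2.54), Ccl22 (-2.30) and Retnla (-2.25) were lowest, and Chil3 was the most abundant (0.63). The list's sums were 712 and 815 CPM. Of 11 conventional dendritic cell markers 9 were measured and 8 were called lower, with a median of -1.83 and sums of 1672 and 483 CPM, among them Esam (-2.66), Batf3 (-2.14) and Fscn1 (-2.13). The other two, too scarce to count as measured, were not lower, with 5 and 13 counts of Clec9a and 0 and 6 of Xcr1. The part of these cells in the values of Epx, Prg2, Ear1 and Ear6 was not tested.

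The genes around the members gave a view by position. Of the genes within 100 kilobases of a member, a window chosen after the values were seen, 16 others were measured, with 1 called lower (Siglecg, beside Siglecf), 1 called higher (P2rx3, beside Prg2, 1.47) and a median log2 ratio of 0.34. The 14 not called lay between -0.89 (Mks1, 197 bases from Epx) and 0.87 (Slc43a3, near Prg2). None of the 16 lies near Ear1 or Ear2, and neighbours too scarce to count as measured, Prg3 among them, are left out.

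Promoter sequences were searched for short motifs on both strands in windows from 250 bases before to 50 after the RefSeq start (GRCm38.p6), which exist for 6 of the 7 members and not for Prg2. The GATA-type motif GATAA was found in 5 of the 6 windows, and in 25.4% of all 32851 windows. Epx had no match, and Ear1, Ear2 and Ear6 each had 1 just after the start. The windows of Ear1, Ear2 and Ear6 are close copies of each other, so their matches are not independent. The 5 of 6 thus cannot be weighed against the 25.4%. The motif TTGCNNAA was found in Ear1 and Ear2 only, inside the upstream sequence that they share, against 10.8% of all windows. The PU.1-type motif GAGGAA was found in Il5ra and Siglecf only, against 28.3%. TATAAA was found in Epx only, at -24 with the start as 0, against 13.6% of all windows. No searched motif was found in all of Epx, Ear1 and Ear6, but only these short motifs were searched, and Prg2 has no window. Any part of the motifs in the ratios was not tested.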

How the data were processed

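Per the labels' protocols, TRIzol RNA of the sorted spleen cells went into KAPA RNA HyperPrep libraries. The deposited table holds raw read counts per gene. The submitters' processing notes list 2 builds, mm10 and GRCm38, and, with no roles, the tools GSNAP, edgeR 3.26.8, Subread 1.5.2 with featureCounts, and FastQC 0.11.9.

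TMM factors (1.01 for C57BL/6, the wild-type library, and 0.991 for Ch25h-/-, the knockout library) from edgeR 4.0.16 in R 4.3.3 set the CPM scale. The ratio is Ch25h-/- over C57BL/6 with no prior count. Its 95% interval is the Clopper-Pearson interval of the Ch25h-/- share of both counts (scipy 1.17.1). Differences between the log2 ratios of a pair of genes have exact conditional odds ratio intervals. No molecular identifiers are named, so reads may not be independent molecules, and all intervals cover counting error only. The calculation was tested on simulated Poisson counts, which hold no variation between mice or sorts. That test checks the arithmetic only. No p-value was computed.

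Positions, transcripts and exon lengths came from GENCODE M21 (GRCm38), which holds all 7 member IDs and 30126 of the table's IDs. Promoters are from RefSeq. Alignments used Biopython 1.88, and Python 3.11.15, numpy 2.4.6, pandas 2.3.3 and matplotlib 3.10.9 were used.

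The members and lists were chosen with earlier results of these data known. Named genes are the 7 members, Ch25h, the other eosinophil lineage and IL-5 family receptor genes with a count, the most abundant and up to 4 most different genes of each further list, and the 5 genes nearest to Epx. Others were chosen after their values were seen. The alternatives tried were scaling by total counts, by upper quartile factors or by DESeq2 1.42.0 size factors, a filter at 5 CPM or none beyond 1 count, a prior count of 2, an interval wholly beyond 2-fold, Ear genes apart or summed, and longest transcript lengths.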

Additional observations from a re-analysis of the deposited data

How the results depend on the processing

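The sign of the log2 ratio of all 7 members held under every alternative that gave a value. The filters and the call rule cannot change a sign. The scalings and the prior count of 2 moved each ratio by less than its size, so the held signs are no test of direction. For Siglecf the counting interval (-0.87 to 0.70) includes both signs. The largest shift of the log2 ratios by another scaling was 0.03. Epx, Prg2, Ear1 and Ear6 were called lower under each of the alternatives except the filter at 5 CPM, which removes Epx, Ear1, Ear6 and Siglecf and so leaves 1 member called lower, Prg2, and a median of -0.91 over the members left. A prior count of 2 drew Epx to -3.45 and Ear1 to -2.65. Over all genes, against 691 lower and 248 higher, the filter at 5 CPM gave 347 lower and 120 higher, no filter beyond 1 count 1077 lower and 435 higher, and an interval wholly beyond 2-fold 318 lower and 67 higher. The filter at 5 CPM moved the median of the peroxidases to -0.41, since it leaves Mpo alone, and no filter beyond 1 count moved that of the growth and recruiting factors from 0.43 to -2.07, because it adds genes with few counts. Against -1.15 for the summed Ear-type genes, the genes kept apart gave -3.30 for Ear1, -0.76 for Ear2 and -3.35 for Ear6. No paired analysis was possible because each genotype has 1 library, and for the same reason no library could be left out. With 3 to 12 counts of Epx, Prg2, Ear1 and Ear6 in the knockout library, depth limits the size of their ratios more than their direction.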
